A study of Mus musculus with 6 samples.

Results

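The miR-143 and miR-145 cluster was examined in the small RNA of extracellular vesicles shed by apoptotic mouse osteoblasts (apoEVs). Its members were chosen by name: every entry of the deposited table called miR-143, miR-145a or miR-145b, with any arm suffix. This gave 5 of 1712 listed entries: mmu-miR-143-3p, mmu-miR-143-5p, mmu-miR-145a-5p, mmu-miR-145a-3p and mmu-miR-145b. The prefix is left out below. The series compares 3 libraries from SIRT6f/f mice, which carry floxed Sirt6 alleles and no Cre, with 3 libraries from Prx1cre;SIRT6f/f mice, here called knockout. Both groups carry the floxed alleles. Cre driven by Prx1 regulatory sequence acts in limb mesenchyme, from which limb osteoblasts derive, so the allele is removed in that lineage and not only in osteoblasts. In both groups osteoblasts were made apoptotic in serum-free medium for 48 h, and the vesicles were pelleted from the cleared supernatant. The age and sex of the mice were not given in the sources used here. Nor was it stated that the replicates are separate animals or cultures. The p-values rest on the spread between libraries alone, and that spread may be technical. In the limma fit to all entries it was taken from entries of similar level, hardly from the entry itself. Only small RNAs are listed, so loss of Sirt6 was not checked.

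The miR-143 and miR-145 hairpins are cut from 1 primary transcript, which depends on serum response factor and myocardin in smooth muscle and is also abundant in other mesenchymal cells. Each hairpin yields a 5p arm and a 3p arm. One of the arms usually stays in Argonaute as the guide and the other, the passenger arm, is degraded. The guide is the 3p arm for miR-143 and the 5p arm for miR-145. Both guides are known for holding smooth muscle cells in the contractile state, and miR-145 for repressing Klf4, a pluripotency and phenotypic-switch factor. In the GENCODE M21 annotation of GRCm38, Mir143 (ENSMUSG00000065445.3) lies on chromosome 18 at 61649196 to 61649258 and Mir145a (ENSMUSG00000065592.2) at 61647825 to 61647894, both on the minus strand and 1301 bases apart. The lincRNA Carmn, known as the host transcript of the cluster, is annotated at 61649625 to 61665537 on the same strand, and neither hairpin lies within this annotated gene. Mir145b (ENSMUSG00000098366.1) lies 7.37 megabases away, at 69022199 to 69022273, and is not part of the cluster.

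Values are in RPM, reads scaled to a common total of 1000000 over the listed entries of each library. The libraries held 1352045 to 1838239 reads, so that 3 reads correspond to 1.63 to 2.22 RPM. Annotated miRNAs outside a list of possible ribosomal or transfer RNA fragments, called ordinary here, took 48.0% to 53.0% of reads in control and 30.1% to 40.8% in knockout libraries. Knockout replicate 3 had the lowest share. Fragment-like entries took 1.99% to 3.85% and 6.44% to 7.63%, and entries with no miRNA name took 43.1% to 50.0% and 52.8% to 62.8%. RPM shares a fixed total, so these shares and the levels reported below are not independent. The part of the shares in those levels was not tested. In bulk vesicle RNA, fewer vesicles of one kind and less RNA per vesicle cannot be told apart.

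Of the 4 cluster arms, 3 had lower levels in every knockout library than in any control library, and 1, miR-145a-5p, did not. This share was near the background: 72.1% of the 122 ordinary annotated entries averaging 100 RPM or more likewise lay lower without overlap. miR-143-3p, the most abundant arm, had 39837 ± 336 RPM in control and 22459 ± 9744 RPM in knockout libraries (mean ± SD, n = 3 libraries each, as for all values below). This difference did not pass the test (limma adjusted p = 0.0858). The passenger arms miR-143-5p and miR-145a-3p differed by a like proportion and passed it narrowly (limma adjusted p = 0.0456 and 0.0457). Of all 1114 tested entries, 2.69% were called lower. Both calls were lost on every other scaling and when knockout replicate 3 was left out. The guide arm miR-145a-5p had 997 ± 187 and 1070 ± 97.1 RPM. The guide arm made up more of the miR-145a reads in knockout libraries. The ratio of miR-143 to miR-145a was lower there. Both lacked overlap between the groups, as did the arm ratios of 7.94% of 214 hairpins on the higher side. Of 16 cotranscribed pairs, miR-143-3p over miR-145a-5p included, 25% lacked overlap. Those pairs are ratios of single arms, whereas the ratio of miR-143 to miR-145a sums both arms. Neither the miR-145a arm ratio nor this summed ratio passed its main test (limma adjusted p = 0.441 and exact permutation adjusted p = 0.167). The arm ratio passed only among 36 more abundant hairpins (limma adjusted p = 0.0242), of which 19.4% lay higher without overlap.

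Libraries were compared with limma, a linear model fitted to all 1114 entries with at least 1 RPM in at least 3 libraries, on log2(RPM + 1), 2-sided, with Benjamini-Hochberg adjustment and a threshold of 0.05. Fold changes on this scale understate the changes of low entries. All 5 entries of the name rule passed that filter. Of all tested entries, 2.15% were called higher and 2.69% lower in knockout libraries. The groups did not overlap for 6.28% of tested entries on the higher side and 19.3% on the lower side. Among the 122 abundant ordinary entries, where the cluster arms belong, 7.38% lay higher without overlap and the groups overlapped for 20.5%. Exact 2-sided permutation tests over libraries were used for single values, and with 3 against 3 libraries they cannot go below p = 0.1.

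miR-143-3p, the guide arm of miR-143, had 39587, 39705 and 40220 RPM in control replicates 1, 2 and 3, and 26589, 29457 and 11330 RPM in knockout replicates 1, 2 and 3. The control libraries were nearly equal, all knockout libraries lay below them, and knockout replicate 3 lay far below the rest. The log2 fold change was -0.94 ± 0.35 (SE), which did not pass the threshold (limma adjusted p = 0.0858). Without knockout replicate 3 it was -0.51 (limma adjusted p = 0.235). In rank among annotated entries, miR-143-3p stood between 2 and 4 in 5 libraries and at 12 in knockout replicate 3. Its neighbours by mean level were miR-99a-5p above, with 47235 ± 4464 RPM in control and 28654.5 ± 8005 RPM in knockout libraries, and miR-26a-5p and miR-125b-5p below. For each of these 3 miRNAs, all abundant in mesenchymal cells, the groups did not overlap, and the log2 fold changes were -0.76, -0.78 and -0.79. With all 6 libraries used, knockout replicate 3 included, miR-143-3p had the lowest log2 fold change of the 10 ordinary entries within 2-fold of its level. The 9 others had a median of -0.68. Of these 9, 6 were likewise lower without overlap, 1 was higher without overlap, and the groups overlapped for 2.

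miR-143-5p, the passenger arm of miR-143, had 174, 117 and 146 RPM in control and 109, 85.3 and 38.1 RPM in knockout libraries. The groups did not overlap, though control replicate 2 and knockout replicate 1 lay close together, and knockout replicate 3 was again the lowest. It fell by 1.01 ± 0.33 (SE) on the log2 scale (limma adjusted p = 0.0456). The call held without knockout replicate 1 (limma adjusted p = 0.0429) and was lost when any other library was left out. Without knockout replicate 3 the value was -0.57 (limma adjusted p = 0.157). Of 66 ordinary entries within 2-fold of its level, 40 were likewise lower without overlap and 56 lay below 0, with a median log2 fold change of -0.59 over the 66.

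miR-145a-3p is called the passenger arm of miR-145a from background knowledge. The label is not read from these values, since this arm took a mean of 42.5% of the hairpin's reads in control libraries. miR-145a-3p had 820, 683 and 686 RPM in control and 438, 523 and 264 RPM in knockout libraries. Every knockout library lay below every control library. It fell by 0.89 ± 0.29 (SE) on the log2 scale (limma adjusted p = 0.0457). The call was lost whichever single library was left out, with limma adjusted p from 0.0508 without knockout replicate 3, where the value was -0.60, to 0.350 without control replicate 3. Of 34 ordinary entries within 2-fold of its level, 24 were likewise lower without overlap, with a median log2 fold change of -0.64 over the 34.

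miR-145a-5p, the guide arm of miR-145a, had 1182, 999 and 809 RPM in control and 1141, 1109 and 959 RPM in knockout libraries. The knockout values lay within the control range. The log2 fold change was 0.11 ± 0.29 (SE; limma adjusted p = 0.834), with a 95% interval of -0.45 to 0.68. Without control replicate 3 the value was -0.03. Of 27 ordinary entries within 2-fold of its level, 20 lay lower without overlap and 24 had a log2 fold change below 0, with a median of -0.58 over the 27. Only 3 of the 27 had a higher value than miR-145a-5p. By mean level its neighbours were miR-6396 and miR-6238 above and miR-30e-5p and miR-183-5p below. The groups overlapped for miR-6396 (-0.26), miR-30e-5p (-0.30) and miR-183-5p (-0.29, all log2 fold changes), whereas miR-6238, a fragment-like entry, rose by 1.30 (limma adjusted p = 0.000602).

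miR-145b was listed at 2.88, 0 and 1.23 RPM in control and 1.24, 0 and 1.09 RPM in knockout libraries. These values stand for at most 4 reads a library. The groups overlapped, and a difference was not detectable at this depth.

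**Figure D1:**
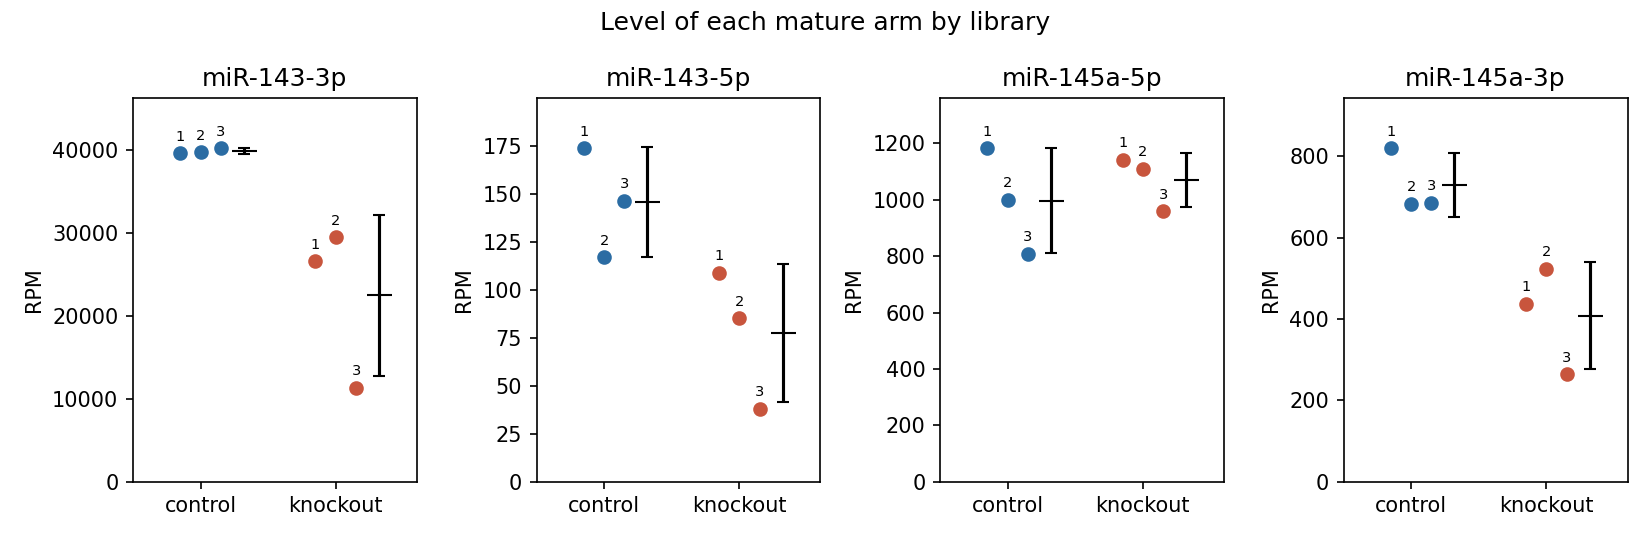
RPM of the 4 cluster arms by library, with the replicate number above each point and the mean ± SD (n = 3) beside each group. The control libraries lie above the knockout libraries for miR-143-3p, miR-143-5p and miR-145a-3p, while the knockout values of miR-145a-5p, 959 to 1141 RPM, lie within the control range.

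These levels were then recomputed on other scales. Rescaling to ordinary annotated entries moved the median log2 fold change of all tested entries from -0.27 to 0.06. On that scale miR-143-3p had -0.48, miR-143-5p -0.55 and miR-145a-3p -0.42, and miR-145a-5p had 0.58 (limma adjusted p = 0.116). None of the 4 passed the threshold on that scale, and each kept its sign. With scaling to all annotated entries, median centring or quantile normalization the signs also held. Before rescaling, the 268 ordinary entries averaging 10 RPM or more had a median of -0.59, and 214 of them lay below 0, which places miR-143-3p, miR-143-5p and miR-145a-3p below the middle of that set and miR-145a-5p above it.

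**Figure D2:**
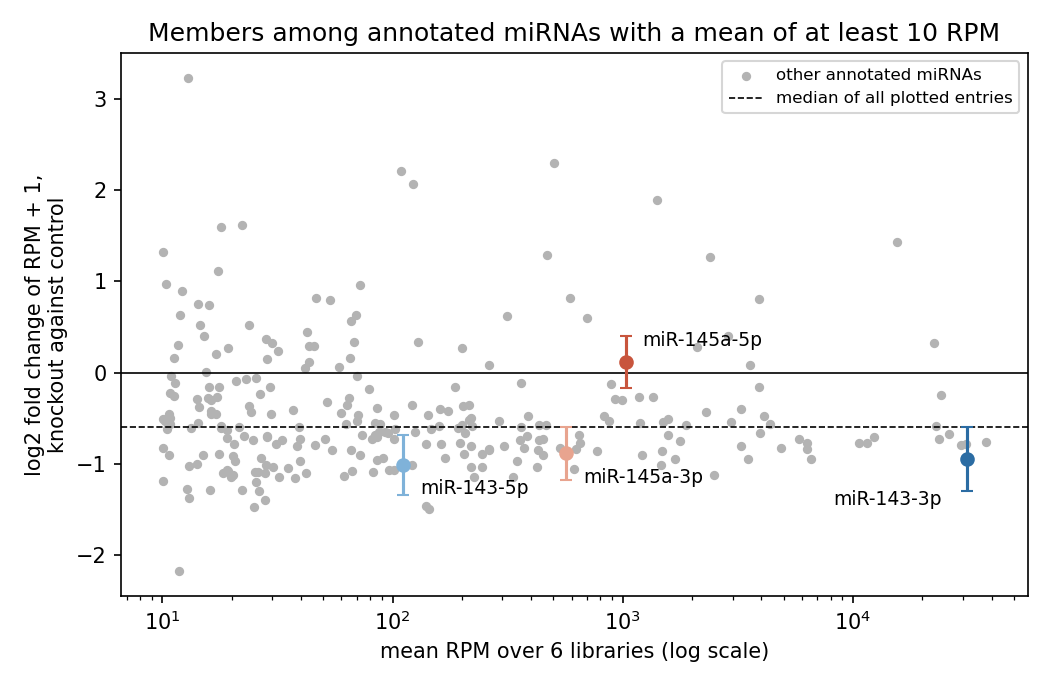
Log2 fold change of RPM + 1 against the mean RPM (log axis) for the 268 ordinary annotated entries averaging 10 RPM or more. Bars on the 4 cluster arms are standard errors from limma. miR-143-3p, miR-143-5p and miR-145a-3p lie below the median of -0.59 and miR-145a-5p, at 0.11, above it.

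The share of all reads taken by the 5 entries was 4.18%, 4.15% and 4.19% in control and 2.83%, 3.12% and 1.26% in knockout libraries. The groups did not overlap (log2 difference of the total -0.90, exact permutation p = 0.1, 2-sided; adjusted p = 0.167 over the 5 sums and ratios tested). Without knockout replicate 3 this difference was -0.49. Within ordinary annotated reads the share was 7.88%, 8.65% and 8.69% in control and 7.43%, 7.64% and 4.18% in knockout libraries. The groups did not overlap, but knockout replicates 1 and 2 lay close to control replicate 1. The mean differed by -1.99 percentage points, and by -0.87 points without knockout replicate 3. miR-143-3p alone made up 94.8% to 96.1% of the total in control and 90.0% to 94.5% in knockout libraries, so the total follows this arm.

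The balance of the 2 cotranscribed hairpins does not depend on the scaling of a library. With both arms summed, miR-143 exceeded miR-145a by a ratio of 19.9, 23.7 and 27.0 in control and 16.9, 18.1 and 9.29 in knockout libraries. All knockout ratios lay below all control ratios, with the nearest libraries, control replicate 1 and knockout replicate 2, close together. The mean log2 ratio was 4.54 ± 0.22 in control and 3.82 ± 0.53 in knockout libraries, a difference of -0.72 (exact permutation p = 0.1, 2-sided; adjusted p = 0.167 over 5). Leaving out knockout replicate 3 gave -0.42. Between the guide arms alone, miR-143-3p over miR-145a-5p, the ratio was 33.5, 39.7 and 49.7 in control and 23.3, 26.6 and 11.8 in knockout libraries (log2 difference -1.06, exact permutation p = 0.1, adjusted p = 0.167).

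For the arm miR-145a-3p, in contrast, the groups overlapped. The ratio of miR-143-3p to miR-145a-3p was 48.3, 58.2 and 58.7 in control and 60.7, 56.3 and 42.9 in knockout libraries. Knockout replicates 1 and 2 lay among the control libraries and knockout replicate 3 below them (log2 difference -0.06, exact permutation p = 0.8, adjusted p = 0.8). The ratio of the passenger arms, miR-145a-3p to miR-143-5p, was 4.72, 5.84 and 4.69 in control and 4.02, 6.13 and 6.94 in knockout libraries, also with overlap (log2 difference 0.12, exact permutation p = 0.7, adjusted p = 0.8). Of the miR-145a arms, miR-145a-5p was thus the one whose ratio to miR-143-3p did not overlap between the groups.

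Within the miR-145a hairpin, the 5p to 3p ratio was 1.44, 1.46 and 1.18 in control and 2.61, 2.12 and 3.63 in knockout libraries. As a share of the hairpin's reads, miR-145a-5p took 59.1%, 59.4% and 54.1% in control libraries and 72.3%, 67.9% and 78.4% in knockout libraries. The 95% Wilson intervals all lay between 52.1% and 61.4% in control and between 66.2% and 80.0% in knockout libraries, and cover counting error only, since reads without molecular identifiers are not independent molecules. Every knockout library lay above every control library, and counting error did not bridge the gap. The log2 difference of the ratio was 1.001 ± 0.46 (SE), which did not pass the threshold in limma fitted to the arm ratios of 214 hairpins (adjusted p = 0.441). In that fit 0% of hairpins were called with a higher ratio and 0.935% with a lower one, and the groups did not overlap for 7.94% in either direction. At an unadjusted level the limma p of miR-145a was 0.0640, and without knockout replicate 3 the log2 difference was 0.79. Most of the 214 hairpins had a passenger arm of a few RPM.

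With the fit limited to the 36 hairpins whose arms both had a mean of at least 10 RPM, the same log2 difference had an SE of 0.27 and passed (limma adjusted p = 0.0242). There 8.33% of hairpins were called with a higher 5p to 3p ratio and 0% with a lower one, and the groups did not overlap for 19.4% and 0%. The other hairpins called were miR-107 (log2 difference 1.47) and miR-144 (1.35). By absolute size miR-145a was at place 4 of these 36, after miR-107, miR-320 and miR-144, and at place 65 of the 214. It differs from these in depth, since its arms had 1033 and 569 RPM on average, against 129 and 61.7 RPM for miR-107. For miR-151 and miR-423, hairpins with both arms at a like depth, the log2 differences were -0.11 and 0.25, and the groups overlapped. The ratio was also higher without overlap, though not called, for miR-221 (0.88), miR-30e (0.54), miR-30a (0.51) and miR-214 (0.50), each with a less abundant arm of lower level.

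For the arms of miR-143 no such difference was detected. miR-143-3p exceeded miR-143-5p by a ratio of 228, 340 and 275 in control and 244, 345 and 298 in knockout libraries. As a share of the hairpin, miR-143-5p took 0.437%, 0.293% and 0.362%, and 0.408%, 0.289% and 0.335%, respectively. The groups overlapped throughout, and the log2 difference of the 5p to 3p ratio was -0.07 ± 0.35 (SE; limma adjusted p = 0.976). The ratio in knockout replicate 3, where both arms were lowest, lay in the middle of the 6 libraries. Over the 214 hairpins miR-143 was at place 18 by how far one arm exceeds the other, and miR-145a, whose arms are of similar abundance, at place 123.

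**Figure D3:**
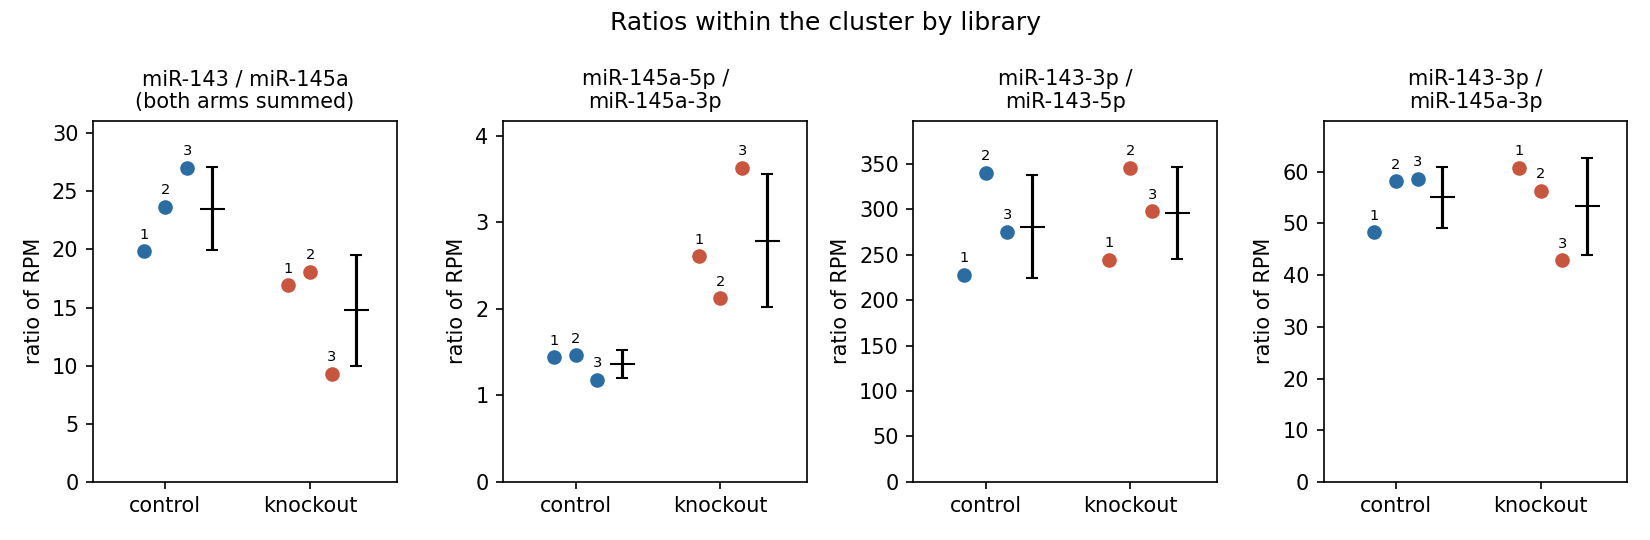
Ratios of RPM within the cluster by library, with the replicate number above each point and the mean ± SD (n = 3) beside each group. The summed miR-143 to miR-145a ratio is lower and the miR-145a 5p to 3p ratio higher in every knockout library, while the groups overlap for miR-143-3p over miR-143-5p and for miR-143-3p over miR-145a-3p.

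Other pairs that are made from 1 primary transcript were set beside the guide arms of miR-143 and miR-145a, with no test. Of 16 pairs, that of miR-143 and miR-145a included, the groups did not overlap for 25% (4 pairs). miR-542-3p over miR-450a-5p had the largest log2 difference, 2.52, and miR-143-3p over miR-145a-5p the second, -1.06. miR-322-5p over miR-503-5p followed with 0.71 and miR-93-5p over miR-25-3p with 0.68. Without knockout replicate 3 these 4 values were 1.93, -0.70, 0.40 and 0.42. The groups overlapped for the other 12 pairs, among them miR-221-3p over miR-222-3p (-0.09), miR-99a-5p over let-7c-5p (0.01) and miR-23b-3p over miR-27b-3p (0.21). miR-450a, let-7c and some other mature miRNAs come from more than 1 locus, so not every pair is a pure cotranscribed one.

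**Figure D4:**
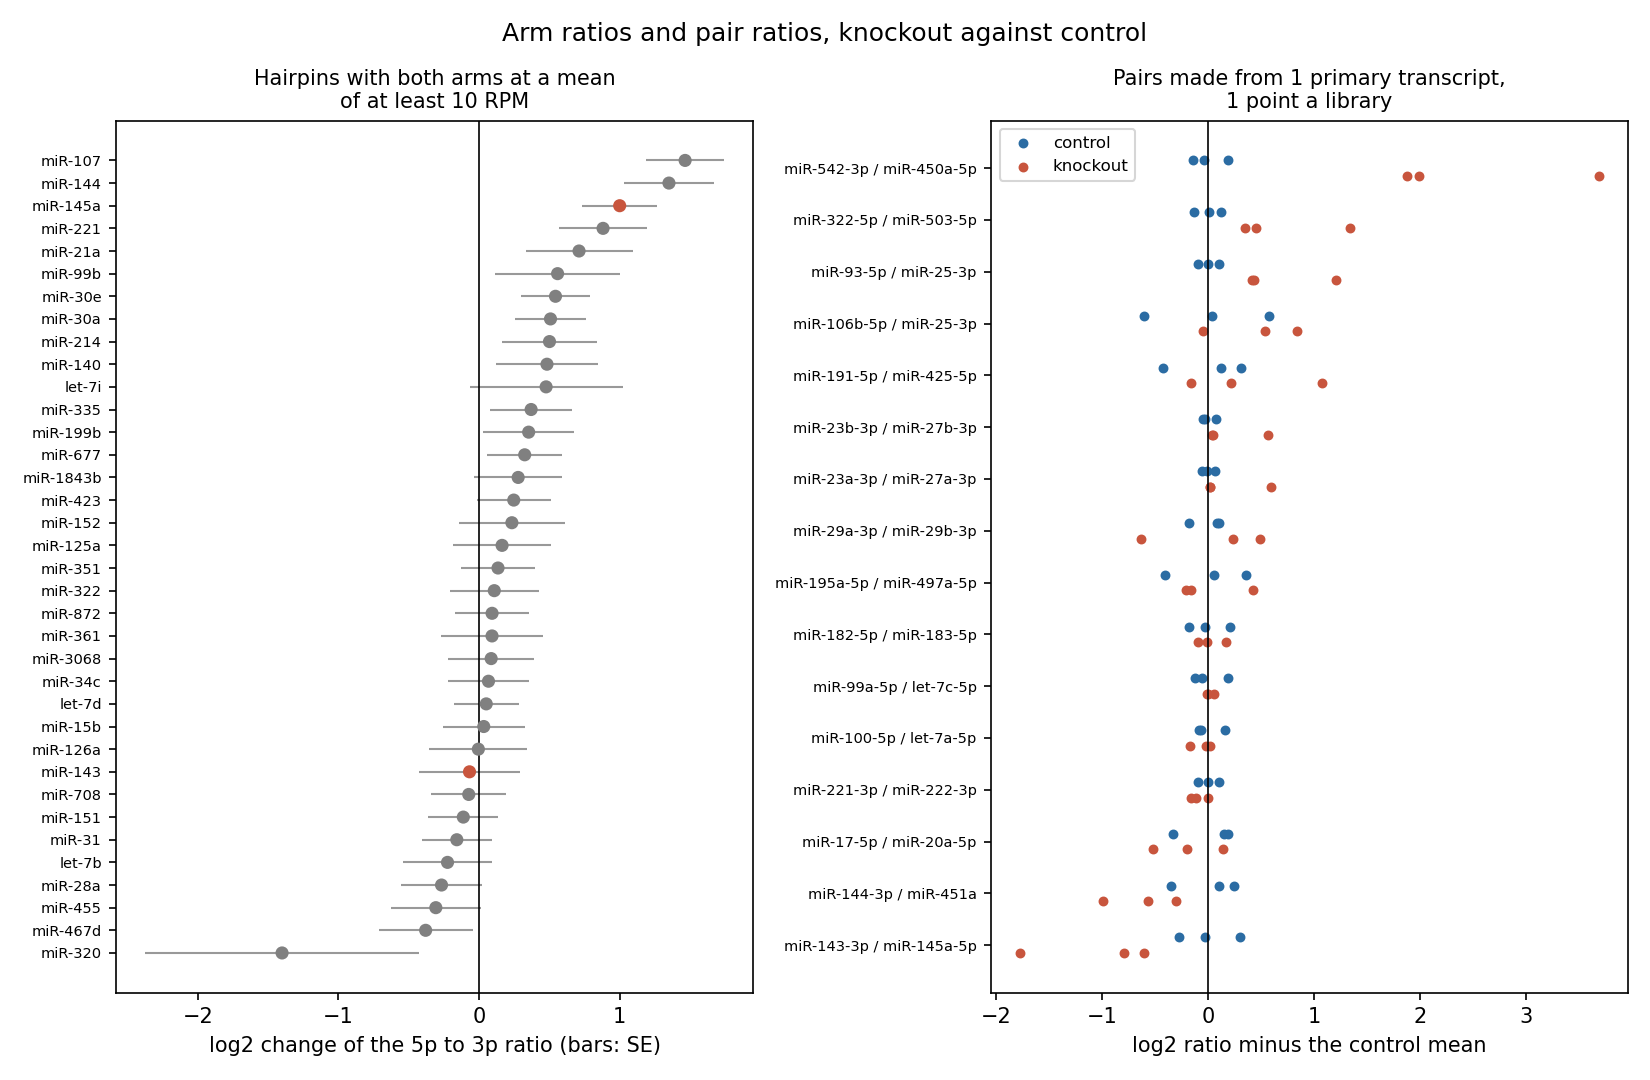
Left, log2 difference of the 5p to 3p ratio, knockout against control, with its limma SE for the 36 hairpins with both arms at a mean of at least 10 RPM; miR-145a, at 1.001, and miR-143, at -0.07, are in colour. Right, log2 ratio of 16 cotranscribed pairs in each library, minus the control mean of the pair; miR-143-3p over miR-145a-5p is shifted to the left in all knockout libraries.

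Across the 6 libraries miR-143-3p, miR-143-5p and miR-145a-3p varied together, with Pearson's r of 0.95 between the miR-143 arms, 0.97 between miR-143-3p and miR-145a-3p, and 0.94 between the passenger arms, all on log2(RPM + 1). Spearman's rho was 0.77, 0.83 and 0.94. Without knockout replicate 3 Pearson's r was 0.73, 0.95 and 0.78 over 5 libraries. miR-145a-5p had r of 0.04 with miR-143-3p, 0.12 with miR-143-5p and 0.07 with its own partner arm. These 3 values were not stable: without knockout replicate 3 they were -0.50, -0.19 and -0.24, and with each group centred on its own mean 0.41, 0.53 and 0.60. All values share the total of each library and the difference between the groups, and they are a description of 6 libraries.

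Among 124 annotated entries averaging 100 RPM or more, those whose pattern over the 6 libraries was most like that of miR-143-3p were miR-652-3p, miR-152-3p, miR-199b-3p, miR-296-3p and let-7f-5p, with Pearson's r from 0.993 to 0.998. Such likeness was common: the median r over the 124 entries was 0.95, and 81 of them exceeded 0.9. With each group centred on its own mean the 5 values were 0.990 to 0.996. miR-199b-3p, a mesenchymal miRNA, had 8455 RPM on average in control and 4673 RPM in knockout libraries. For miR-145a-5p the most alike entries were miR-6240 (r = 0.74), miR-878-3p (0.64), miR-1195 (0.57), miR-207 (0.54) and miR-148b-3p (0.505). The median r with miR-145a-5p was 0.09, and none of the 124 exceeded 0.9. miR-6240 is one of the fragment-like entries.

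miRNAs known in smooth muscle and stromal cells beside miR-143 and miR-145 were described as a list of 25, of which 22 were tested. All 22 lay below 0, with a median log2 fold change of -0.66, beside -0.27 over all 1114 tested entries, of which 669 lay below 0. The 122 ordinary entries averaging 100 RPM or more had the same median, -0.66, with 103 below 0. In this list 2 fell and 0 rose (limma, adjusted p under 0.05), beside 2.69% and 2.15% of all tested entries. Most of those entries are of low level, unlike the list. In the fit with the filter raised to 10 RPM in at least 3 libraries, 60 of 358 entries were called lower and 24 higher. The 2 members of the list that fell in the main fit were miR-214-3p and miR-29a-3p. The latter, a known repressor of collagen mRNAs, had 3361 ± 609 RPM in control and 1601 ± 559 RPM in knockout libraries, and miR-214-3p, a mesenchymal miRNA, had 807 ± 91.0 and 417 ± 177 RPM. The abundant members miR-99a-5p, miR-26a-5p and miR-125b-5p did not pass the threshold, and neither did miR-21a-5p (-0.24, limma adjusted p = 0.747), whose groups overlapped as those of miR-145a-5p did. A list of mesenchymal miRNAs, which mark the labelled cell lineage, had 18 of 19 members listed, and its sum was 211759.5 to 241779 RPM in control and 99786 to 168941 RPM in knockout libraries.

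Markers of other cell types were low beside this. All 4 endothelial entries were listed, with sums of 85.1 to 105 RPM in control and 23.4 to 52.2 RPM in knockout libraries. Of 9 blood cell miRNAs 8 were listed, with sums of 630 to 888 and 263 to 485 RPM. Of 7 skeletal and heart muscle miRNAs 3 were listed, with sums of 71.0 to 85.1 and 40.3 to 57.6 RPM, and the heart miRNAs miR-208a-3p, miR-208b-3p and miR-499-5p were not among the listed entries. These 3 sums were lower in every knockout library, as were miR-143-3p, miR-143-5p and miR-145a-3p. So were the mesenchymal sum, the smooth muscle and stromal sum, and 72.1% of the 122 abundant ordinary entries. The part of the 3 sums in the values of the cluster was not tested. For the remaining lists of other cell types the groups overlapped. All 4 liver and gut entries were listed, with sums of 404 to 418 and 215 to 435 RPM. All 6 epithelial entries were listed, with sums of 21.4 to 25.2 and 16.9 to 31.1 RPM, and 2 of 5 neural entries, with sums of 17.2 to 34.0 and 4.35 to 23.7 RPM. No list served to mark smooth muscle cells apart from osteoblasts, since miR-143 and miR-145 themselves are the usual smooth muscle miRNAs.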

How the data were processed

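Small RNA of apoEVs was sequenced in 6 libraries, 3 a group, taken from the sample labels. The authors deposited 1 table of RPM values with 1712 entries. Fastp and edgeR are named in the submitters' processing notes with no role or version. Aligner, miRNA annotation and genome build were not given in the sources used here. All columns summed to 1000000 RPM, so abundant entries lower the others. In each column all values were whole multiples of 0.5 times the smallest value above 0 (tolerance 0.001 read). That smallest value was taken as 2 reads, which gives the depths and the Wilson intervals (95%). Entries at 1 read do not occur, so these are not complete raw counts, and no count model was run.

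From these values, limma 3.58.1 in R 4.3.3 was fitted to log2(RPM + 1), with a trend of variance on mean, for entries with at least 1 RPM in at least 3 libraries, and to log2((5p + 1)/(3p + 1)) for hairpins with both arms past that filter. In the fit to all entries the trend carried all of the weight, so the SE of an entry hardly reflects its own spread. Single ratios and sums were compared with exact permutation tests. The scripts were tested on simulated data. Alternatives were other pseudocounts, filters, scalings and priors, a replicate block and each library left out.

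Named entries were the members, the 5 entries most like each guide arm, the 2 nearest in level on each side, up to 4 abundant members of a list, and fixed cotranscribed pairs. The hairpins miR-107, miR-144, miR-320, miR-151, miR-423, miR-221, miR-30e, miR-30a and miR-214 were named after their values were seen. So were miR-29a-3p and miR-214-3p. The members and lists were chosen with earlier results of these data known. Mature sequences of the cluster are not reported here.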

Additional observations from a re-analysis of the deposited data

How the results depend on the processing

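The signs of miR-143-3p, miR-143-5p, miR-145a-3p, the cluster total, the hairpin ratio and the miR-145a arm ratio held in every alternative run. Most calls did not. With a single library left out, the log2 value ranged from -1.20 to -0.51 for miR-143-3p, -1.32 to -0.57 for miR-143-5p, -1.09 to -0.60 for miR-145a-3p, -0.027 (without control replicate 3) to 0.25 for miR-145a-5p, -1.14 to -0.49 for the total, -0.90 to -0.42 for the hairpin ratio, 0.79 to 1.18 for the miR-145a arm ratio and -0.21 to 0.073 for the miR-143 arm ratio, which lay above 0 without control replicate 1 (0.073) and without knockout replicate 2 (0.055).

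miR-143-3p passed with the filter at 10 RPM (-0.94, limma adjusted p = 0.0439) and with a robust prior (-0.94, limma adjusted p = 0.0406), and its limma adjusted p ranged up to 0.470 over the other alternatives. miR-143-5p and miR-145a-3p lost their calls with rescaling to annotated entries (-0.74 and -0.61), to ordinary annotated entries (-0.55 and -0.42), median centring (-0.83 and -0.70), quantile normalization (-0.61 and -0.50), a pseudocount of 0.5 RPM (-1.02 and -0.89), no filter, a robust prior or no trend (-1.01 and -0.89 in each), and miR-145a-3p also with a pseudocount of 5 RPM (-0.88). The miR-145a arm ratio passed with hairpins at 10 RPM or more (1.001).

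The replicate numbers showed no sign of pairing. Same-numbered libraries had correlations of 0.01, -0.02 and 0.01 in their deviations from the group means, beside -0.08 to 0.07 for the others. Such values cannot show that the libraries were not prepared in pairs. With a replicate block miR-143-5p and miR-145a-3p lost their calls (-1.01 and -0.89, with limma adjusted p of 0.0829 and 0.0896), and 11 entries were lower.

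Over all entries, 24 were higher and 30 lower. The lower count was 15 with a pseudocount of 0.5 RPM, 15 with no filter, 60 with the filter at 10 RPM, 17 with a robust prior, 8 with median centring, 16 with quantile normalization and 5 with rescaling to annotated entries. Rescaling to ordinary annotated entries gave 38 higher and 2 lower. Without the trend, limma called 0 higher and 0 lower, with 55 and 75 at an unadjusted p under 0.05. With a library left out the counts were 0 to 26 higher and 0 to 18 lower; without control replicate 3 both were 0, with 53 and 84 at an unadjusted p under 0.05. The share of higher among called entries was 44.4%, and 84.8%, 95%, 80.0% and 66.7% with rescaling to annotated entries, to ordinary ones, median centring and quantile normalization. The edgeR and DESeq2 alternatives were not run, as the values are not complete counts. Among the members, depth limits miR-145b.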
